A study of Homo sapiens with 18 samples.

Results

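The genes of sterol and fatty acid synthesis were described across parental and mesenchymal cells of 3 human lung cancer cell lines. The members are 34 of the 19849 genes in the deposited table, found by their gene symbol and listed by their role in these pathways, with earlier results of these data known. They are 14 enzymes of sterol synthesis, 16 enzymes of fatty acid synthesis, elongation and desaturation, and 4 genes of regulation and transport. Of the 16 fatty acid enzymes, 5 supply acetyl-CoA or build the fatty acid chain, 6 elongate it and 5 introduce double bonds.

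Each of A549, HCC827 and NCI-H358 was profiled as parental cells and as its TGFβ-induced mesenchymal derivative, on 3 Affymetrix U133 Plus 2.0 arrays a group and 18 arrays in all. The derivatives had been grown with 2 ng/ml TGFβ for 3 weeks per the labels, and the medium carried no TGFβ on the last day before lysis. The paper's methods give up to 3 weeks for A549 and at least 3 weeks for HCC827 and NCI-H358. Exposure may thus have differed between lines. All 6 groups shared an RPMI1640 medium with 10% FBS and 4 mM glutamine, so every culture had serum, and with it an outside source of lipids. A value is an RMA level, the log2 of the signal of 1 probe set per gene, and a log2 change is the mean of the mesenchymal arrays minus that of the parental arrays. Changes were tested with limma in 1 fit of all arrays, p values were adjusted over the 19849 genes by the Benjamini-Hochberg method, and a gene was called at an adjusted p below 0.05. Errors of log2 changes are standard errors, and the number of arrays, 3 a group, limits the precision. The study describes its plotted array values as averages of separate biological samples made at the same time. A group rests on 1 cell line, and the fit shares 1 estimate of the spread per gene over all 6 groups. The p values thus cover the spread between such samples pooled over the lines, and not that of a single line. For the same reason a gene has the same standard error in each line.

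Sterol synthesis starts from cytosolic acetyl-CoA, which is condensed to HMG-CoA, reduced to mevalonate and built up through isopentenyl and farnesyl diphosphate to squalene, the first compound committed to sterols. Squalene is then oxidized, closed to lanosterol and trimmed to cholesterol. Fatty acid synthesis draws on the same acetyl-CoA, which is carboxylated to malonyl-CoA and joined into palmitate, and elongases and desaturases then lengthen the chain and add double bonds. Both pathways are controlled by the SREBP transcription factors. The product of SREBF2 is known mainly for sterol genes and that of SREBF1 mainly for fatty acid genes, and INSIG1 holds SREBPs in the endoplasmic reticulum when sterols are plentiful.

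The start-site windows of 6 members are shown because these genes carry the contrasts described below. SREBF2 and INSIG1 control the pathway, HMGCS1 changed in opposite directions between lines, and SREBF1, SCD and ELOVL7 fell in every line. Each window runs from 250 bases before to 50 bases after a RefSeq start site in GRCh38.p14 and is written 5′ to 3′ on the strand of its gene. Capitals mark a sterol regulatory element (TCACNCCAC) or an NF-Y box (CCAAT), and a match on the other strand appears in the window as its reverse complement, ATTGG for the NF-Y box. The windows lie at chr22:41832855-41833154, plus strand (SREBF2), chr7:155297628-155297927, plus strand (INSIG1), chr5:43313363-43313662, minus strand (HMGCS1), chr17:17836937-17837236, minus strand (SREBF1), chr10:100346983-100347282, plus strand (SCD) and chr5:60844220-60844519, minus strand (ELOVL7).
SREBF2: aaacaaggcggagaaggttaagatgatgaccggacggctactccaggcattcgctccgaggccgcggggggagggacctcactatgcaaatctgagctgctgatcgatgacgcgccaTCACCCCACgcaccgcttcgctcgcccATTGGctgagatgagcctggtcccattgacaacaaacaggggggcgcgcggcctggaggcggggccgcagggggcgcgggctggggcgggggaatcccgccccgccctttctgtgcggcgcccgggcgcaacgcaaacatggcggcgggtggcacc
INSIG1: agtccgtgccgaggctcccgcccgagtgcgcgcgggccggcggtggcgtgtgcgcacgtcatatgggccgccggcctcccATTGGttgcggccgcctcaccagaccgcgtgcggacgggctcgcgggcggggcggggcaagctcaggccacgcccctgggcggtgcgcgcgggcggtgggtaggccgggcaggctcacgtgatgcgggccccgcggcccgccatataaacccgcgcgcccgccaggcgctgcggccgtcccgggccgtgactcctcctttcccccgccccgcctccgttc
HMGCS1: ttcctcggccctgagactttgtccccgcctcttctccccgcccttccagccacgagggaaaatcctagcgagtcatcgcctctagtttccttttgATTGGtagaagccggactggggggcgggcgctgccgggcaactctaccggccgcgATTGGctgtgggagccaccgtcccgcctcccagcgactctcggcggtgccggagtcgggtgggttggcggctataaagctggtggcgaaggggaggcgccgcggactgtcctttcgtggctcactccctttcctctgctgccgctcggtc
SREBF1: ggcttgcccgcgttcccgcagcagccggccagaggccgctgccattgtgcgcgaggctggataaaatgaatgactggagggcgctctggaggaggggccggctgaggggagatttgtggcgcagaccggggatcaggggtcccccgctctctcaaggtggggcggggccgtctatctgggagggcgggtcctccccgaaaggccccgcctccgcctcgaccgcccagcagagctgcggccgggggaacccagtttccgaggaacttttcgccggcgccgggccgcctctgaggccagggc
SCD: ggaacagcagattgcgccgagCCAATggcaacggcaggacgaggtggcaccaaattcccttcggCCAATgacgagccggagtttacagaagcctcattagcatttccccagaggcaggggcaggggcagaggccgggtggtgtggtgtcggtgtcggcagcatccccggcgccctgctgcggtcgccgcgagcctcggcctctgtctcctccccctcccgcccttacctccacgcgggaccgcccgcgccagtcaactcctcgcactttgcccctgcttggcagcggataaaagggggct
ELOVL7: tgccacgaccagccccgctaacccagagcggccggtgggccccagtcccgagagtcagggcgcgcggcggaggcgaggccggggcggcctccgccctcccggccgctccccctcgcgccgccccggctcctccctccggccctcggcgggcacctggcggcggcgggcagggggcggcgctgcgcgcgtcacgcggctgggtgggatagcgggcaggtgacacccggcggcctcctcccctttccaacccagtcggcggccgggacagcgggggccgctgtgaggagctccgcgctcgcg

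Windows were found for 31 of the 34 members, with 41 windows in all, and FDFT1, SQLE and FASN were not among them. The sterol regulatory element TCACNCCAC, searched on both strands, was present in the window of SREBF2 and of no other member, against 1.39% of the 27305 genes with a window. Its shorter core CACNCCAC, which every longer match also contains, was found in 5 of 31 members (16.1%) and in 7.05% of all genes. The NF-Y box CCAAT was found in 25 of 31 members (80.6%) and in 39.7% of all genes. Among the sterol enzymes it was present in 11 of 12, among the fatty acid enzymes in 11 of 15 and among the regulators in 3 of 4. The windows of SREBF1 and ELOVL7 held none, that of SCD held a pair on the gene's own strand and the printed one of HMGCS1 a pair on the opposite strand. Another window of HMGCS1, at chr5:43313132-43313431, held none. The Sp1 box GGGCGG was found in 29 of 31 members (93.5%) and in 48.3% of all genes, and the E-box CACGTG in 4 members (12.9%) and 8.77%. The windows of all genes were not matched to those of the members in base composition. A match is a run of letters and not a binding site, and its absence says only that these letters were not in this window.

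The labels were checked against markers of both states. The 6 mesenchymal markers were called higher in every line, with changes in CDH2 of 1.94, 3.26 and 2.04 in A549, HCC827 and NCI-H358. All 7 epithelial markers were called lower in HCC827 and NCI-H358 and 5 of 7 in A549, where ESRP1 was dim in both states and CLDN4 did not pass. The lung lineage markers SFTPB and SFTPC were not called in any line, and NKX2-1 was dim in A549 and fell in NCI-H358 (-1.06). Of 4 fibroblast markers, 4, 2 and 2 were called higher in the 3 lines in this order. LUM led them, with changes of 2.15, 3.93 and 2.15. The mean level of the fibroblast markers was 4.18 to 4.47 on the parental and 5.23 to 5.32 on the mesenchymal arrays of A549, against 4.32 to 4.66 and 5.38 to 5.80 on those of HCC827. On the NCI-H358 arrays it was 5.34 to 5.44 and 6.09 to 6.33. The part of these markers in the results below was not tested. Array medians lay between 6.31 and 6.47, and the standard deviation of the log2 differences between arrays of a group between 0.163 and 0.282.

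Most members fell upon EMT in A549 and HCC827, whereas in NCI-H358 a part of the sterol pathway rose and most of the fatty acid genes that changed fell. In A549, 22 of the 34 members were called lower and 3 higher, against 26.8% and 16.6% of all genes in the table. In HCC827, 23 were called lower and 2 higher, against 25% and 20.8%. In NCI-H358, 12 were called lower and 9 higher, against 19.8% and 21.5%. The members' median log2 change was -0.37, -0.36 and -0.12 in the 3 lines, and that of all genes -0.02, 0.01 and 0.02. Changes of more than 2-fold were fewer, with 4, 7 and 3 members lower and 2, 0 and 1 higher (0 in HCC827 also at an unadjusted p below 0.05). Over all genes 3.87%, 6.58% and 5.42% were lower and 4.15%, 4.89% and 3.96% higher by that rule. In cultured cells profiled in bulk, fewer cells of a type and less RNA per cell cannot be told apart.

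**Figure D1:**
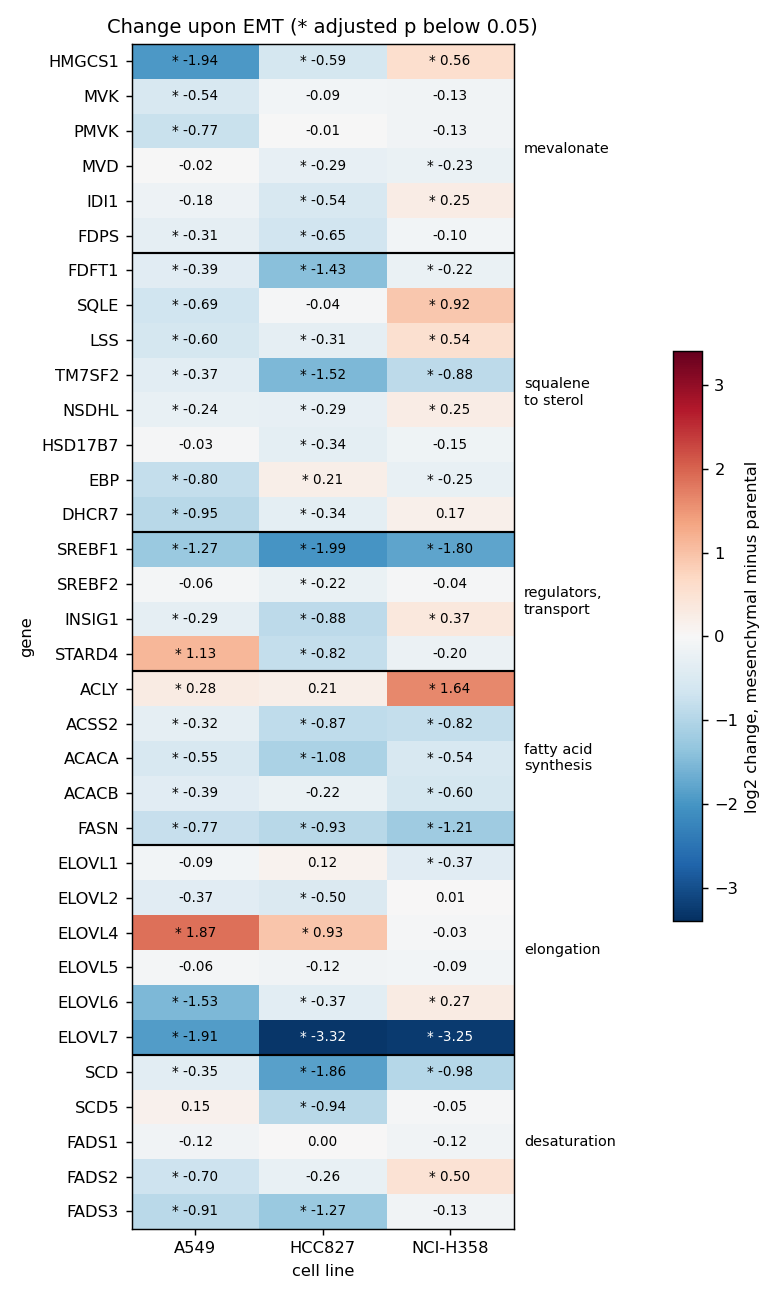
Log2 change upon EMT (mesenchymal minus parental mean, n = 3 arrays a group) of the 34 members in each cell line, grouped by role, with blue for lower and red for higher levels in mesenchymal cells and an asterisk for an adjusted p below 0.05. Blue prevails in A549 and HCC827, while 9 members are called higher in NCI-H358.

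SREBF1, the gene of SREBP-1, fell in all 3 lines. In A549 its level was 9.71, 9.34 and 9.26 on the parental and 8.03, 8.28 and 8.20 on the mesenchymal arrays. It was 9.96, 9.42 and 9.25 on the parental and 7.40, 7.53 and 7.74 on the mesenchymal arrays of HCC827. NCI-H358 had 9.63, 9.80 and 9.94 on the parental and 8.03, 7.89 and 8.07 on the mesenchymal arrays. Every mesenchymal array lay more than 1 log2 unit below the lowest parental array in HCC827 and NCI-H358, and in A549 the groups did not overlap either. SREBF1 was lower by 2.40-fold, with a log2 change of -1.27 ± 0.16 (SE, adjusted p = 4.41e-06) in A549. In HCC827 it was lower by 3.98-fold, with a log2 change of -1.99 ± 0.16 (SE, adjusted p = 1.21e-08). The decrease in NCI-H358 was 3.47-fold, with a log2 change of -1.80 ± 0.16 (SE, adjusted p = 5.74e-08). The fall in HCC827 exceeded that in A549 by -0.73 ± 0.22 (adjusted p = 0.0143), and the other differences between lines did not pass, with -0.53 ± 0.22 (adjusted p = 0.0679) for NCI-H358 minus A549 and 0.20 ± 0.22 (95% confidence interval -0.28 to 0.67) for NCI-H358 minus HCC827.

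SREBF2, the gene of SREBP-2, was called in 1 of the 3 lines, HCC827, and this call was lost with arrays centred on their median (adjusted p = 0.0909). Its level was 7.17, 7.12 and 7.06 on the parental and 7.08, 7.10 and 7.01 on the mesenchymal arrays of A549, where the groups overlapped and the log2 change was -0.06 ± 0.066 (adjusted p = 0.544). It was 7.42, 7.43 and 7.48 on the parental and 7.22, 7.19 and 7.27 on the mesenchymal arrays of HCC827, without overlap, a fall of 1.16-fold, with a log2 change of -0.22 ± 0.066 (SE, adjusted p = 0.0121). The level in NCI-H358 was 7.49, 7.47 and 7.67 on the parental and 7.52, 7.57 and 7.41 on the mesenchymal arrays, again with overlap, and the log2 change was -0.04 ± 0.066 (adjusted p = 0.666).

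INSIG1, the SREBP retention factor and itself a known SREBP target, fell in 2 lines and rose in the other. In A549 its level was 9.79, 9.75 and 9.90 on the parental and 9.53, 9.62 and 9.41 on the mesenchymal arrays, and it was lower by 1.23-fold, with a log2 change of -0.29 ± 0.11 (SE, adjusted p = 0.0364). HCC827 had the highest level, 11.72, 11.56 and 11.59 on the parental and 10.72, 10.76 and 10.75 on the mesenchymal arrays, and here INSIG1 was lower by 1.85-fold, with a log2 change of -0.88 ± 0.11 (SE, adjusted p = 2.45e-06). The groups did not overlap in either line. NCI-H358 had 10.23, 10.29 and 10.77 on the parental and 10.80, 10.85 and 10.73 on the mesenchymal arrays, and it was higher by 1.29-fold, with a log2 change of 0.37 ± 0.11 (SE, adjusted p = 0.0109). There parental array 3 lay among the mesenchymal arrays, while the other parental arrays were lower. The rise in NCI-H358 was not called without parental array 1 (adjusted p = 0.0697) or 2 (0.0604), and the fall in A549 not without parental array 1 or 3 or mesenchymal array 1 or 3 (adjusted p = 0.0656 to 0.136).

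STARD4, a carrier of cholesterol between membranes, had yet another pattern. Its level was 8.41, 8.27 and 8.13 on the parental and 9.42, 9.39 and 9.38 on the mesenchymal arrays of A549, and it rose there by 2.18-fold, with a log2 change of 1.13 ± 0.090 (SE, adjusted p = 1.98e-08). In HCC827 it was 9.69, 9.60 and 9.45 on the parental and 8.73, 8.72 and 8.82 on the mesenchymal arrays, and it fell by 1.77-fold, with a log2 change of -0.82 ± 0.090 (SE, adjusted p = 7.37e-07). In NCI-H358 it was 9.68, 9.81 and 10.03 on the parental and 9.68, 9.59 and 9.65 on the mesenchymal arrays. The groups were apart in A549 and HCC827 and shared values in NCI-H358, where the log2 change was -0.20 ± 0.090 (adjusted p = 0.0906). The change in HCC827 minus that in A549 was -1.95 ± 0.13 (adjusted p = 2.13e-09).

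**Figure D2:**
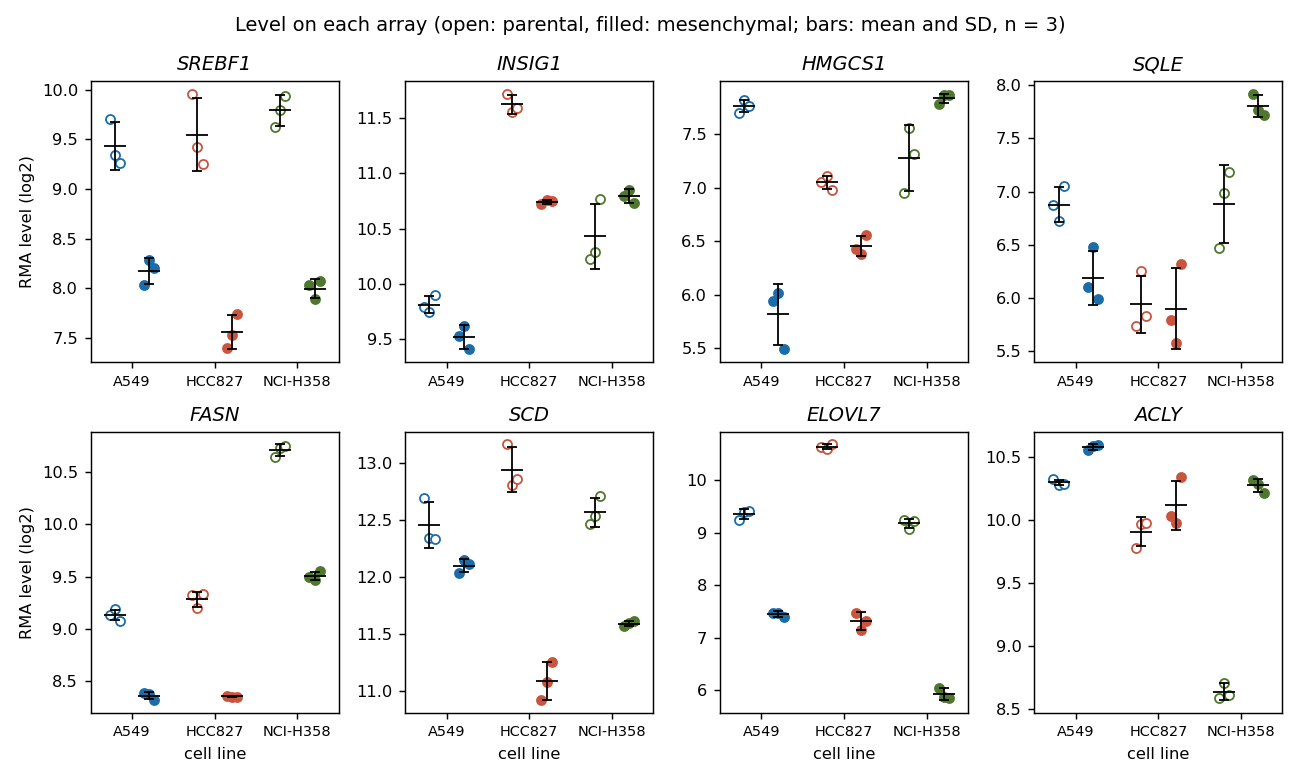
RMA level (log2) of 8 members on each array, with open circles for parental and filled circles for mesenchymal cells and bars for the mean and SD of 3 arrays. SREBF1, FASN, SCD and ELOVL7 are lower in the mesenchymal cells of every line, HMGCS1 and INSIG1 go down in A549 and HCC827 and up in NCI-H358, and ACLY is highest above its parental level in NCI-H358.

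Most of the 14 sterol enzymes fell in A549 and HCC827, and those of NCI-H358 split. In A549, 11 were called lower and 0 higher by limma, 0 were higher at an unadjusted p below 0.05 because all 14 log2 changes were negative, and their median was -0.47. In HCC827, 10 were called lower and 1 higher, with a median of -0.33. In NCI-H358, 4 were called lower and 5 higher, with a median of -0.12, against 19.8% and 21.5% of all genes. Without parental array 2 of NCI-H358, 2 instead of 4 were called lower there. By the median change the steps before and after farnesyl diphosphate stood at -0.43 and -0.50 in A549, at -0.42 and -0.33 in HCC827 and at -0.12 and 0.0088 in NCI-H358.

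HMGCS1, which forms HMG-CoA, showed the largest change among the sterol enzymes in A549. Its level was 7.70, 7.82 and 7.76 on the parental and 5.94, 6.02 and 5.49 on the mesenchymal arrays of A549, 7.05, 7.11 and 6.98 on the parental and 6.43, 6.38 and 6.56 on the mesenchymal arrays of HCC827, and 6.95, 7.56 and 7.31 on the parental and 7.78, 7.86 and 7.86 on the mesenchymal arrays of NCI-H358. In no line did the groups overlap, and NCI-H358 was the line in which the mesenchymal arrays were the higher ones. HMGCS1 was lower in A549 by 3.85-fold, with a log2 change of -1.94 ± 0.13 (SE, adjusted p = 2.95e-09). In HCC827 it was lower by 1.51-fold, with a log2 change of -0.59 ± 0.13 (SE, adjusted p = 0.00139). In NCI-H358 it was higher by 1.47-fold, with a log2 change of 0.56 ± 0.13 (SE, adjusted p = 0.00266). The change in NCI-H358 exceeded that in A549 by 2.50 ± 0.19 (adjusted p = 1.35e-08) and that in HCC827 by 1.15 ± 0.19 (adjusted p = 0.000117).

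The mevalonate kinases MVK and PMVK were called lower in A549 and not called in the other lines. PMVK was 9.44, 9.33 and 9.36 on the parental and 8.57, 8.64 and 8.62 on the mesenchymal arrays, without overlap, and was lower by 1.71-fold, with a log2 change of -0.77 ± 0.070 (SE, adjusted p = 9.69e-08). In HCC827 and NCI-H358 its log2 changes were -0.01 ± 0.070 and -0.13 ± 0.070, and the fall in A549 differed from both (adjusted p = 7.42e-06 and 5.18e-05). MVK, a dimmer gene, had a log2 change of -0.54 ± 0.19 (adjusted p = 0.025) in A549, where mesenchymal array 3 reached the parental range. This call was lost without parental array 1 or mesenchymal array 1 or 2 (adjusted p = 0.11 to 0.123). Its changes in the other lines, -0.09 ± 0.19 and -0.13 ± 0.19, did not pass, and neither did their differences from A549 (adjusted p = 0.189 and 0.228).

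MVD, which makes isopentenyl diphosphate, fell slightly in HCC827 (-0.29 ± 0.064, adjusted p = 0.00109) and NCI-H358 (-0.23 ± 0.064, adjusted p = 0.00639), and its log2 change was -0.02 ± 0.064 in A549. IDI1, the isomerase of the next step, fell in HCC827 (-0.54 ± 0.095, adjusted p = 0.000131) and rose in NCI-H358 (0.25 ± 0.095, adjusted p = 0.0422), whereas -0.18 ± 0.095 in A549 did not pass. The rise of IDI1 in NCI-H358 lay at the threshold and was lost without any one of the 6 arrays of NCI-H358 (adjusted p = 0.0651 to 0.125) and without 5 of the 12 arrays of the other lines (0.0503 to 0.0516). FDPS, farnesyl diphosphate synthase, was bright, with mean levels of 10.81 to 11.92. In HCC827 its level was 11.86, 11.96 and 11.95 on the parental and 11.34, 11.33 and 11.15 on the mesenchymal arrays. All mesenchymal arrays were below all parental arrays, and FDPS was lower by 1.57-fold, with a log2 change of -0.65 ± 0.070 (SE, adjusted p = 5.53e-07). It also fell in A549 (-0.31 ± 0.070, adjusted p = 0.00151), and in NCI-H358 its log2 change was -0.10 ± 0.070 (adjusted p = 0.276).

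FDFT1, squalene synthase, and TM7SF2, a sterol reductase, were the sterol enzymes called lower in all 3 lines, and both fell most in HCC827. FDFT1 was 12.18, 11.99 and 11.94 on the parental and 10.66, 10.60 and 10.56 on the mesenchymal arrays of HCC827, more than 1 log2 unit apart, and was lower by 2.69-fold, with a log2 change of -1.43 ± 0.079 (SE, adjusted p = 1.16e-10). The log2 change was -0.39 ± 0.079 (adjusted p = 0.000604) in A549, and it was smallest in NCI-H358, at -0.22 ± 0.079 (adjusted p = 0.0314). The call in NCI-H358 was lost without parental array 2 or 3 or mesenchymal array 2 or 3 (adjusted p = 0.0642 to 0.17). Parental HCC827 had the highest FDFT1 level, 12.04 ± 0.13 (SD, n = 3), against 10.52 ± 0.089 (SD, n = 3) in A549 and 11.13 ± 0.14 (SD, n = 3) in NCI-H358. Its mean levels in the mesenchymal cells were closer together, at 10.13, 10.61 and 10.90.

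TM7SF2 was 7.97, 7.60 and 7.42 on the parental and 6.18, 6.06 and 6.21 on the mesenchymal arrays of HCC827 and 7.17, 7.26 and 7.28 on the parental and 6.45, 6.16 and 6.47 on the mesenchymal arrays of NCI-H358. In both lines the groups were apart, and parental array 1 of HCC827 was the brightest of all. TM7SF2 was lower by 2.86-fold, with a log2 change of -1.52 ± 0.11 (SE, adjusted p = 4.72e-09) in HCC827. Its decrease in NCI-H358 was 1.84-fold, with a log2 change of -0.88 ± 0.11 (SE, adjusted p = 5.07e-06). In A549 the log2 change was -0.37 ± 0.11 (adjusted p = 0.013). The mesenchymal means of the 3 lines, 6.15, 6.15 and 6.36, lay nearer to each other than the parental ones, 6.51, 7.66 and 7.24.

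SQLE, the squalene epoxidase known as a slow step of the pathway, and LSS, lanosterol synthase, rose in NCI-H358. SQLE was 6.47, 6.99 and 7.18 on the parental and 7.92, 7.77 and 7.72 on the mesenchymal arrays of NCI-H358, with the parental arrays widely spread and all below the mesenchymal ones. It was higher by 1.89-fold, with a log2 change of 0.92 ± 0.20 (SE, adjusted p = 0.00114). In A549 it fell (-0.69 ± 0.20, adjusted p = 0.0098) and in HCC827 the arrays of both states overlapped (-0.04 ± 0.20, adjusted p = 0.899). LSS was 9.37, 9.31 and 9.24 on the parental and 9.87, 9.79 and 9.89 on the mesenchymal arrays of NCI-H358, a narrow spread in both groups, and was higher by 1.46-fold, with a log2 change of 0.54 ± 0.084 (SE, adjusted p = 4.58e-05). LSS fell in both other lines, A549 (-0.60 ± 0.084, adjusted p = 1.66e-05) and HCC827 (-0.31 ± 0.084, adjusted p = 0.00526). As NCI-H358 minus A549, the changes differed by 1.61 ± 0.28 for SQLE (adjusted p = 0.000179) and by 1.14 ± 0.12 for LSS (adjusted p = 6.59e-07).

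The late enzymes EBP and DHCR7 fell most in A549. EBP, a sterol isomerase, was 9.91, 9.93 and 9.99 on the parental and 9.13, 9.12 and 9.18 on the mesenchymal arrays of A549, without overlap, and was lower by 1.74-fold, with a log2 change of -0.80 ± 0.077 (SE, adjusted p = 1.77e-07). It was called higher in HCC827 (0.21 ± 0.077, adjusted p = 0.0338) and lower again in NCI-H358 (-0.25 ± 0.077, adjusted p = 0.0138). Both of these calls were lost with an array left out. In HCC827 this held for parental array 1 and mesenchymal arrays 1 and 2 (adjusted p = 0.0831 to 0.177, log2 change down to 0.13), and in NCI-H358 for parental arrays 1 and 2 (0.0529 and 0.0737). DHCR7, which reduces the last precursor to cholesterol, was 8.08, 7.84 and 7.90 on the parental and 6.92, 7.10 and 6.94 on the mesenchymal arrays of A549. The groups did not overlap, and DHCR7 was lower by 1.94-fold, with a log2 change of -0.95 ± 0.092 (SE, adjusted p = 2e-07). HCC827 had a smaller log2 change of -0.34 ± 0.092 (adjusted p = 0.00492), whereas DHCR7 stood at 0.17 ± 0.092 (adjusted p = 0.162) in NCI-H358.

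NSDHL and HSD17B7, both of which act in the removal of methyl groups from lanosterol, changed little. NSDHL fell in A549 (-0.24 ± 0.072, adjusted p = 0.0121) and HCC827 (-0.29 ± 0.072, adjusted p = 0.00323) and rose in NCI-H358 (0.25 ± 0.072, adjusted p = 0.00915). Its call in A549 was lost without parental array 3 (adjusted p = 0.053). HSD17B7 fell in HCC827 (-0.34 ± 0.080, adjusted p = 0.00195), and its log2 changes in A549 and NCI-H358 were -0.03 ± 0.080 and -0.15 ± 0.080. HSD17B7 and IDI1 were read by probe sets with the suffix _x_at, whose probes can also match other transcripts, and HSD17B7 has a near-identical pseudogene, so their values are uncertain.

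**Figure D3:**
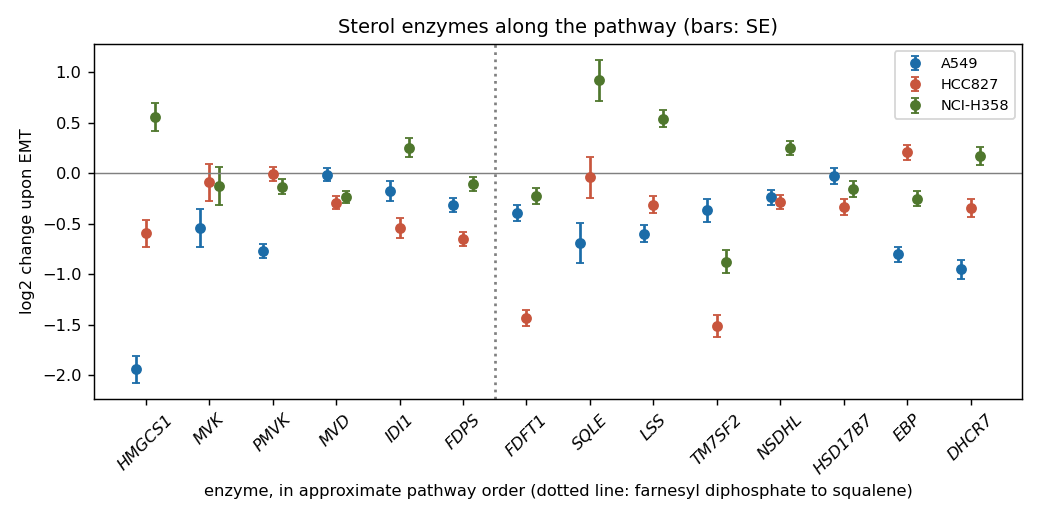
Log2 change upon EMT of the 14 sterol enzymes in approximate pathway order from left to right, with bars for the SE and 1 colour for each cell line. HMGCS1, SQLE and LSS stand above 0 in NCI-H358 and at or below 0 in A549 and HCC827, and FDFT1 and TM7SF2 are lowest in HCC827.

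The 16 fatty acid enzymes leaned to lower levels in every line. In A549, 9 were called lower and 2 higher, with a median log2 change of -0.36. In HCC827, 9 were called lower and 1 higher, with a median of -0.43. In NCI-H358, 7 were called lower and 3 higher, with a median of -0.12, against 19.8% and 21.5% of all genes.

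FASN, the fatty acid synthase that builds palmitate, fell in each line with a narrow spread between arrays. In A549 its level was 9.13, 9.19 and 9.08 on the parental and 8.39, 8.38 and 8.32 on the mesenchymal arrays, in HCC827 9.32, 9.20 and 9.33 on the parental and 8.36, 8.35 and 8.35 on the mesenchymal arrays, and in NCI-H358 10.65, 10.73 and 10.75 on the parental and 9.50, 9.47 and 9.55 on the mesenchymal arrays. The groups were apart in all lines, and NCI-H358 started from the highest level. FASN was lower in NCI-H358 by 2.31-fold, with a log2 change of -1.21 ± 0.057 (SE, adjusted p = 1.93e-11). The log2 changes in A549 and HCC827 were -0.77 ± 0.057 (adjusted p = 7.16e-09) and -0.93 ± 0.057 (adjusted p = 4.37e-10). The fall in NCI-H358 was larger than that in A549 (-0.43 ± 0.081, adjusted p = 0.000309) and than that in HCC827 (-0.28 ± 0.081, adjusted p = 0.012), and mesenchymal NCI-H358 cells, at 9.51, still had a higher mean level than the parental cells of A549 (9.13) and HCC827 (9.28).

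ACACA and ACACB carboxylate acetyl-CoA to malonyl-CoA, the former in the cytosol and the latter at the mitochondrion. ACACA was 11.09, 10.88 and 10.95 on the parental and 9.87, 9.85 and 9.95 on the mesenchymal arrays of HCC827, without overlap, and was lower by 2.12-fold, with a log2 change of -1.08 ± 0.066 (SE, adjusted p = 3.72e-10). It also fell in A549 (-0.55 ± 0.066, adjusted p = 2.75e-06) and NCI-H358 (-0.54 ± 0.066, adjusted p = 3.03e-06). ACACB fell in NCI-H358 (-0.60 ± 0.13, adjusted p = 0.00151), where it stood at percentiles 26.2 and 17.9 of all genes in parental and mesenchymal cells and parental array 3 lay in the mesenchymal range, and in A549 (-0.39 ± 0.13, adjusted p = 0.0272), and its log2 change in HCC827 was -0.22 ± 0.13 (adjusted p = 0.209). The call in A549 was lost without parental array 1 or mesenchymal array 1 or 3 (adjusted p = 0.0626 to 0.111).

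Of the suppliers of acetyl-CoA, ACLY and ACSS2 moved in opposite directions in NCI-H358. ACLY, which splits citrate, was 8.59, 8.71 and 8.61 on the parental and 10.32, 10.29 and 10.22 on the mesenchymal arrays of NCI-H358, a gap of more than 1 log2 unit, and was higher by 3.12-fold, with a log2 change of 1.64 ± 0.084 (SE, adjusted p = 4.94e-11). In A549 it rose by a smaller amount (0.28 ± 0.084, adjusted p = 0.0117), and in HCC827 its log2 change of 0.21 ± 0.084 lay just outside the threshold (adjusted p = 0.0508). The rise in NCI-H358 exceeded those in A549 and HCC827 by 1.36 ± 0.12 and 1.43 ± 0.12 (adjusted p = 7.15e-08 and 5.3e-08). Parental NCI-H358 cells had the lowest level of ACLY, 8.64 ± 0.066 (SD, n = 3), and their mesenchymal derivatives, 10.28 ± 0.052 (SD, n = 3), were close to parental A549, 10.30 ± 0.022 (SD, n = 3). ACSS2, which activates acetate, fell in HCC827 (-0.87 ± 0.11, adjusted p = 2.44e-06), NCI-H358 (-0.82 ± 0.11, adjusted p = 5.88e-06) and A549 (-0.32 ± 0.11, adjusted p = 0.0227). The last call was lost without parental or mesenchymal array 1 of A549 (adjusted p = 0.0949 and 0.125).

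Of the elongases, ELOVL7 had the largest decrease of any member in HCC827 and NCI-H358. Its level was 9.25, 9.40 and 9.42 on the parental and 7.48, 7.48 and 7.39 on the mesenchymal arrays of A549, 10.63, 10.60 and 10.68 on the parental and 7.48, 7.15 and 7.32 on the mesenchymal arrays of HCC827, and 9.24, 9.07 and 9.22 on the parental and 6.05, 5.88 and 5.85 on the mesenchymal arrays of NCI-H358. In each line the states were separated by well over 1 log2 unit. ELOVL7, an elongase of long saturated chains, was lower by 3.75-fold, with a log2 change of -1.91 ± 0.084 (SE, adjusted p = 8.11e-12) in A549. In HCC827 it was lower by 9.98-fold, with a log2 change of -3.32 ± 0.084 (SE, adjusted p = 5.93e-15). In NCI-H358 it was lower by 9.50-fold, with a log2 change of -3.25 ± 0.084 (SE, adjusted p = 1.31e-14). The fall in A549 was smaller than in HCC827 (-1.41 ± 0.12, adjusted p = 4.93e-08) and NCI-H358 (-1.34 ± 0.12, adjusted p = 9.62e-08), and the latter lines differed by 0.07 ± 0.12 (95% confidence interval -0.18 to 0.32).

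ELOVL6, which elongates palmitate to stearate, fell in A549 and moved little elsewhere. In A549 its level was 6.88, 6.99 and 6.85 on the parental and 5.42, 5.43 and 5.28 on the mesenchymal arrays, more than 1 log2 unit apart, and it was lower by 2.89-fold, with a log2 change of -1.53 ± 0.077 (SE, adjusted p = 4.15e-11). It fell in HCC827 (-0.37 ± 0.077, adjusted p = 0.000613) and rose in NCI-H358 (0.27 ± 0.077, adjusted p = 0.00944), a call that was lost without mesenchymal array 1 of NCI-H358 (adjusted p = 0.0625). ELOVL4, an elongase of very long chains, rose in A549, where its level was 4.37, 4.63 and 4.06 on the parental and 5.92, 6.44 and 6.31 on the mesenchymal arrays. The groups did not overlap, and it was higher by 3.65-fold, with a log2 change of 1.87 ± 0.18 (SE, adjusted p = 2.1e-07). It rose in HCC827 as well (0.93 ± 0.18, adjusted p = 0.000352) and was dim in both states of NCI-H358, with means of 3.18 and 3.14 at percentiles 6.4 and 6.1 of all genes. In parental A549 and HCC827 it stood at percentiles 21.2 and 17.7, and its mean over all arrays placed it among the genes under percentile 25, so that it was absent from the fit without dim genes.

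The remaining elongases were called in at most 1 line each. ELOVL1 fell in NCI-H358 (-0.37 ± 0.063, adjusted p = 0.000111). ELOVL2, an elongase of polyunsaturated chains, fell in HCC827 (-0.50 ± 0.17, adjusted p = 0.0221), where the groups overlapped and the call was lost without parental array 2 or 3 or mesenchymal array 1 or 3 (adjusted p = 0.0675 to 0.12). In A549 the level of ELOVL2 was 8.50, 8.50 and 8.61 on the parental and 8.14, 8.19 and 8.16 on the mesenchymal arrays. These groups did not overlap and had SDs of 0.064 and 0.0275. The fall was not called there with the standard error of 0.17 that all lines share. ELOVL5, which acts on the same kind of chains, was called in no line, with log2 changes of -0.06, -0.12 and -0.09 and no confidence interval beyond -0.31 or 0.13.

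SCD, the main stearoyl-CoA desaturase, was bright and fell in all lines. Its level was 13.16, 12.80 and 12.86 on the parental and 10.92, 11.08 and 11.25 on the mesenchymal arrays of HCC827 and 12.46, 12.53 and 12.71 on the parental and 11.57, 11.59 and 11.61 on the mesenchymal arrays of NCI-H358. No mesenchymal array reached the parental range in either line, and in HCC827 the gap exceeded 1 log2 unit. SCD was lower by 3.62-fold, with a log2 change of -1.86 ± 0.11 (SE, adjusted p = 3.53e-10) in HCC827. Its decrease in NCI-H358 was 1.97-fold, with a log2 change of -0.98 ± 0.11 (SE, adjusted p = 1.49e-06). The fall in A549 was smaller (-0.35 ± 0.11, adjusted p = 0.0167) and was lost without parental or mesenchymal array 1 (adjusted p = 0.106 and 0.0601, with a log2 change of -0.24 without the former). The differences of the fall in HCC827 from those in A549 and NCI-H358 were -1.50 ± 0.16 (HCC827 minus A549, adjusted p = 7.26e-07) and 0.88 ± 0.16 (NCI-H358 minus HCC827, adjusted p = 0.000276). SCD5, the second human stearoyl-CoA desaturase, fell in HCC827 (-0.94 ± 0.20, adjusted p = 0.0007), where mesenchymal arrays ranged from 4.36 to 5.50, and its log2 changes were 0.15 ± 0.20 in A549 and -0.05 ± 0.20 in NCI-H358.

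The FADS genes, which are neighbours on chromosome 11, did not move together. FADS3 was 7.68, 7.71 and 7.63 on the parental and 6.62, 6.82 and 6.85 on the mesenchymal arrays of A549 and 7.45, 7.62 and 7.38 on the parental and 6.30, 5.94 and 6.39 on the mesenchymal arrays of HCC827. The groups were apart in both lines. FADS3 was lower in A549 by 1.88-fold, with a log2 change of -0.91 ± 0.13 (SE, adjusted p = 1.52e-05). In HCC827 it was lower by 2.41-fold, with a log2 change of -1.27 ± 0.13 (SE, adjusted p = 2.29e-07). In NCI-H358 its log2 change was -0.13 ± 0.13. FADS2, a front-end desaturase of polyunsaturated chains, fell in A549 (-0.70 ± 0.14, adjusted p = 0.00049) and rose in NCI-H358 (0.50 ± 0.14, adjusted p = 0.00706), and its log2 change was -0.26 ± 0.14 in HCC827. FADS1, which acts after it, was called in no line, with parental means of 10.80, 9.50 and 9.89 in A549, HCC827 and NCI-H358 against mesenchymal means of 10.68, 9.50 and 9.77.

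Set side by side, the 3 lines shared the fall of 8 members, FDFT1, TM7SF2, SREBF1, ACSS2, ACACA, FASN, ELOVL7 and SCD. These are 8 of 34, against 6.14% of all genes called lower in every line. They comprise 5 of the 16 fatty acid enzymes, 2 of the 14 sterol enzymes and 1 of the 4 regulators. By limma 0 members were called higher in every line, against 4.31% of all genes, and at an unadjusted p below 0.05 there was 1, ACLY. Another 5 members, HMGCS1, LSS, NSDHL, INSIG1 and ELOVL6, were called lower in A549 and HCC827 and higher in NCI-H358, a pattern held by 1.55% of all genes. Without parental array 3 of A549 the calls of NSDHL and INSIG1 there were lost and 3 members held it, as they did with arrays centred on their median. Members called in opposite directions in at least 1 pair of lines numbered 10, against 15.7% of all genes, and 2, ELOVL5 and FADS1, were called in no line, against 31.2%. By the test of the difference itself, the change differed between HCC827 and A549 for 20 members (42.2% of all genes), between NCI-H358 and A549 for 21 (42.8%) and between NCI-H358 and HCC827 for 22 (37.9%). In the last comparison the change was the higher one in NCI-H358 for 18 of the 34 members, against 21.1% of all genes, and for 9 of the 14 sterol enzymes. Comparisons that share a line share its arrays.

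**Figure D4:**
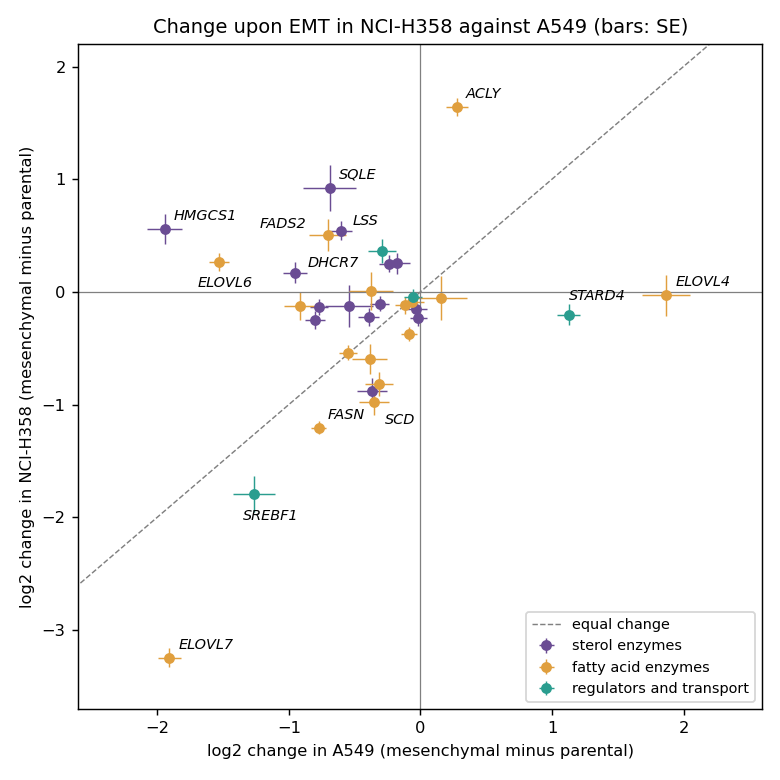
Log2 change upon EMT in NCI-H358 (vertical axis) against A549 (horizontal axis) for the 34 members, with bars for the SE and colours for sterol enzymes, fatty acid enzymes and regulators. The sterol enzymes HMGCS1, SQLE and LSS lie in the upper left field, lower in A549 and higher in NCI-H358, while FASN, SCD, SREBF1 and ELOVL7 lie in the lower left field.

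The comparison of the pathways was made array by array, as the mean level of the 14 sterol and of the 16 fatty acid enzymes minus its parental mean in that line. In A549 the sterol mean of the mesenchymal arrays was -0.56 (-0.585 to -0.517) and the fatty acid mean -0.361 (-0.424 to -0.300). In HCC827 the values were -0.445 (-0.484 to -0.404) and -0.655 (-0.701 to -0.575). The sterol mean thus lay below the fatty acid mean in A549 and above it in HCC827. In HCC827 the gap between the ranges rested on 1 gene. Without ELOVL7 the fatty acid mean of HCC827 was -0.477 (-0.524 to -0.392), which overlaps the sterol range. Without HMGCS1 the sterol mean of A549 was -0.453 (-0.490 to -0.423), still the lower mean, with a range that just meets the fatty acid range. With ELOVL7 also left out, the fatty acid mean of A549 was -0.258 (-0.327 to -0.195), and that sterol range lay below it. In NCI-H358 the sterol mean was 0.043 (0.015 to 0.069), overlapping the parental arrays (-0.086 to 0.068), and the fatty acid mean was -0.360 (-0.389 to -0.341), below all parental arrays (-0.023 to 0.027). Without ELOVL7 the latter was -0.168 (-0.195 to -0.142), still below all parental arrays (-0.029 to 0.026). These means are a description, because the members were chosen with results known. By the median, which single genes move less, both pathways stood at -0.12 in NCI-H358.

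**Figure D5:**
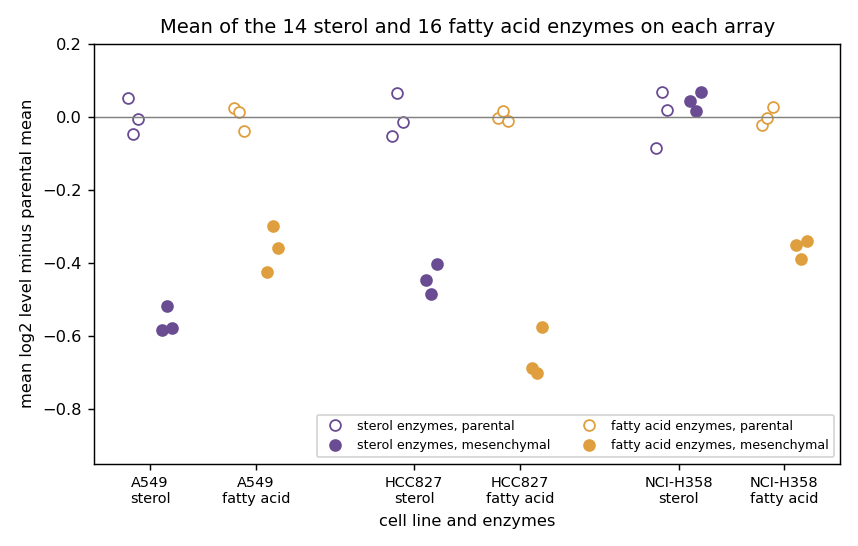
Mean log2 level of the 14 sterol enzymes (purple) and the 16 fatty acid enzymes (orange) on each array, minus the mean of the parental arrays of the same line, with open circles for parental and filled circles for mesenchymal arrays. The sterol mean of NCI-H358 stays at the parental level (0.043), whereas the other 5 means lie between -0.360 and -0.655. Without ELOVL7 the fatty acid means are -0.258, -0.477 and -0.168 in A549, HCC827 and NCI-H358.

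The parental lines already differed in these genes. Between parental HCC827 and A549, 29 of 34 members were called, between NCI-H358 and A549 23, and between NCI-H358 and HCC827 25, against 57.1%, 57.9% and 52.6% of all genes. By more than 2-fold the members numbered 10, 8 and 9, against 18.8%, 20.4% and 15.2%. ELOVL2 had the widest range, with 8.54 ± 0.064 (SD, n = 3) in A549, 5.46 ± 0.34 (SD, n = 3) in HCC827 and 4.36 ± 0.18 (SD, n = 3) in NCI-H358. It was 8.45-fold higher in A549 than in HCC827 (adjusted p = 4.98e-11). It was also higher than in NCI-H358 (adjusted p = 7.13e-13), where it was dim, at percentile 20.6 of all genes, so that the size of this difference is uncertain. ACACB and FADS2 were also highest in A549, ACACB by 3.01-fold over HCC827 and 7.25-fold over NCI-H358, and FADS2 by 3.31-fold and 3.30-fold. INSIG1 was highest in HCC827, 3.51-fold above A549 and 2.29-fold above NCI-H358, and FASN was highest in NCI-H358, 2.98-fold above A549 and 2.69-fold above HCC827. SCD5 was 4.21-fold lower in HCC827 than in A549, and STARD4 was 2.48-fold and 2.98-fold higher in HCC827 and NCI-H358 than in A549. The adjusted p of each of these differences was at most 6.75e-08. SREBF1 did not pass in any pair of parental lines, with mean levels of 9.44, 9.55 and 9.79, a spread of up to 0.37 between arrays (SD), and confidence intervals of the differences that reach from -0.22 to 0.69.

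Other genes of the same pathways were read from a list of 47, chosen for function, all of which were in the table. In A549, 24 were called lower and 7 higher, in HCC827 24 and 6, and in NCI-H358 18 and 11, against the shares of all genes given above. Of 10 other sterol synthesis genes, 5, 7 and 3 were called lower and 1, 0 and 4 higher in the 3 lines in the same order, with medians of -0.30, -0.42 and 0.04. Of 21 other fatty acid genes, 9, 10 and 9 were called lower and 4, 4 and 3 higher, with medians of -0.10, -0.18 and -0.24. A fall in every line was called for 8 of the 47, against 6.14% of all genes. Among them, LBR, a sterol reductase like TM7SF2, changed by -0.57, -0.16 and -0.63 in A549, HCC827 and NCI-H358, and MYLIP, a ubiquitin ligase, by -1.65, -1.61 and -1.20. NPC1, which exports cholesterol from lysosomes, changed by -1.04, -0.79 and -0.71, and INSIG2, the partner gene of INSIG1, by -0.28, -1.04 and -0.22. HACD2, a dehydratase of the elongation cycle, changed by -1.04, -0.18 and -0.58, and OXSM, of mitochondrial fatty acid synthesis, by -0.40, -0.68 and -0.36. A rise in every line, called for 4.31% of all genes, was found for ACSL4, which activates polyunsaturated fatty acids, with 2.28 ± 0.21, 1.16 ± 0.21 and 1.34 ± 0.21 (adjusted p = 1.12e-07, 0.000183 and 4.93e-05).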

How the data were processed

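The authors hybridized total RNA to Affymetrix U133 Plus 2.0 arrays and normalized them by RMA, and the table they deposited holds log2 expression values of 1 probe set for each of 19849 genes on 18 arrays. The rule for choosing the probe set, the annotation version and the genome build are not given in the sources used here, and other probe sets of a gene were not analysed here. Columns were matched to samples by their titles, with 0 left over. Columns of the authors' own comparisons were not used.

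Changes were fitted by the lmFit and eBayes functions of limma (version 3.58.1, R 4.3.3), with 6 groups and no covariate, as mesenchymal minus parental, as differences of this change between lines, and between parental lines. Per-gene values are given in full for SREBF1, SREBF2, INSIG1 and STARD4 and, in each line, for the 4 sterol and the 4 fatty acid enzymes with the largest called change. The members and lists were chosen with earlier results of these data known. An exact permutation test of 3 against 3 arrays cannot go below p = 0.1 and was not used. Data were also simulated with the means and spread of the real arrays. Of 100 genes changed 1.5-fold, 78, 85 and 79 were called in A549, HCC827 and NCI-H358. Of 100 changed 2-fold, 100, 99 and 98 were called, with 7, 9 and 12 false calls among the unchanged genes. All other genes were left unchanged there, whereas 8617, 9093 and 8211 genes were called in the real data. The adjusted p threshold is therefore less strict in the real data, and the simulated counts do not carry over to them.

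Alternatives were a fit per line, an intensity trend, leaving out genes whose mean lay under percentile 25, centring on the array median, other thresholds, the methods' t-test and each array left out. Promoter windows came from a RefSeq table of GRCh38.p14, and figures were drawn with matplotlib 3.10.9 in Python 3.11.15. Some genes of the list of other pathway genes are counted but not reported here by name.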

Additional observations from a re-analysis of the deposited data

Results flagged for a closer look

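For 10 members the change upon EMT was called in opposite directions in a pair of lines and the difference itself passed limma's test of the interaction, which gave 16 such pairs. Each value is the log2 change in the first line minus that in the second. HMGCS1 differed by 2.50 (adjusted p = 1.35e-08) between NCI-H358 and A549 and by 1.15 (adjusted p = 0.000117) between NCI-H358 and HCC827. LSS differed by 1.14 (adjusted p = 6.59e-07) and 0.86 (adjusted p = 2.04e-05) in the same pairs, NSDHL by 0.49 (adjusted p = 0.000807) and 0.54 (adjusted p = 0.000421), INSIG1 by 0.66 (adjusted p = 0.00196) and 1.25 (adjusted p = 4.75e-06), and ELOVL6 by 1.80 (adjusted p = 6.85e-10) and 0.64 (adjusted p = 0.000153). For SQLE and FADS2 the pair was NCI-H358 and A549, with 1.61 (adjusted p = 0.000179) and 1.21 (adjusted p = 8.41e-05). IDI1 differed by 0.80 (adjusted p = 0.000145) between NCI-H358 and HCC827. EBP differed by 1.01 (adjusted p = 8.33e-07) between HCC827 and A549 and by -0.46 (adjusted p = 0.00262) between NCI-H358 and HCC827, the only gene of the 10 with its rise in HCC827. STARD4, with its rise in A549, differed by -1.95 (adjusted p = 2.13e-09) between HCC827 and A549. In 14 of the 16 pairs NCI-H358 was one of the lines. Over all genes, 15.7% were called in opposite directions in at least 1 pair of lines.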

How the results depend on the processing

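Of 102 changes of members (34 genes in 3 lines), 71 were called, and none of these reversed its direction under any alternative run. With 1 array left out, 13 of the 71 calls were lost at least once, as given beside each gene. The fatty acid enzymes called lower in A549 then numbered 6 to 10 and the sterol enzymes 10 to 12. In HCC827 these counts were 8 to 10 and 10, and in NCI-H358 7 and 2 to 4, with 4 to 5 sterol enzymes higher. Members with a difference of the change numbered 17 to 21 (HCC827 and A549), 21 to 22 (NCI-H358 and A549) and 22 to 24 (NCI-H358 and HCC827), and with a parental difference 27 to 29, 22 to 24 and 23 to 26. Members lower in all 3 lines numbered 6 to 8, members lower in A549 and HCC827 and higher in NCI-H358 3 to 7, and members called in opposite directions 8 to 10. These counts, 8, 5 and 10 as reported, were 6, 3 and 11 with centring, 6, 1 and 5 by the methods' t-test, 4, 3 and 7 at an adjusted p below 0.01, 2, 0 and 0 with a fold above 2 as well, and 0, 0 and 0 at the study's threshold. Leaving ELOVL7 out of the fatty acid means and HMGCS1 out of the sterol means was chosen after seeing the data. Centring each array on its median raised the median change of all genes to 0.05, 0.07 and 0.05 and turned the split of all calls in A549 from 3301 higher and 5316 lower to 4207 and 4392. It left 2 instead of 4 sterol enzymes lower in NCI-H358, as did an adjusted p below 0.01 (the cause of the former was not tested), and 7 calls were lost (FDFT1 and EBP in NCI-H358, NSDHL, INSIG1, ACSS2 and ACACB in A549 and SREBF2 in HCC827). Changes that had not been called changed sign under it for PMVK in HCC827 (0.0578), SQLE in HCC827 (0.0234), MVD in A549 (0.0527), HSD17B7 in A549 (0.0381), SREBF2 in A549 (0.0121), ELOVL5 in A549 (0.0072) and ELOVL4 in NCI-H358 (0.008). With 1 array left out, uncalled changes also changed sign within -0.0465 to 0.0151 (PMVK, HCC827), -0.0635 to 0.0141 (MVD, A549), -0.25 to 0.12 (SQLE, HCC827), -0.0749 to 0.0415 (FADS1, HCC827) and, in NCI-H358, -0.30 to 0.0037 (MVK), -0.0811 to 0.0198 (SREBF2), -0.19 to 0.14 (ELOVL2), -0.13 to 0.0793 (ELOVL4) and -0.15 to 0.0303 (SCD5). With a fold above 2 as well, the sterol enzymes lower numbered 1, 2 and 0 in A549, HCC827 and NCI-H358, the fatty acid enzymes lower 2, 4 and 2, and the sterol enzymes higher in NCI-H358 0. The members with a difference of the change were then 9, 10 and 5, and with a parental difference 10, 8 and 9. At the study's threshold, an adjusted p below 1e-05 and a fold above 5, these counts were 0, 0 and 0 for sterol and 0, 1 and 1 for fatty acid enzymes lower and 0 for sterol enzymes higher, with 0, 1 and 0 differences of the change and 1, 2 and 0 parental differences. The fit of each line on its own lost 5 calls and gained 1, and the methods' t-test after Benjamini-Hochberg adjustment lost 15 and gained 2. By the t-test the 6 members lower in all 3 lines included FDPS and left out FDFT1, ACSS2 and SCD. The intensity trend and the filter on dim genes lost none of the calls they tested. ACLY in HCC827, at the threshold, was called under the trend, the filter and the centring. No paired analysis was possible because the labels give no replicate numbers shared between groups. The precision is limited by 3 arrays a group and, for ELOVL4, ELOVL2 and ACACB, by a low signal in at least 1 group.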

Other observations

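The following genes of sterol transport and fatty acid activation were chosen after their values were seen, because their changes differ between lines. NPC2, the lysosomal partner of NPC1, rose in A549 (1.83 ± 0.064, adjusted p = 3.53e-13) and HCC827 (0.92 ± 0.064, adjusted p = 1.92e-09) and fell in NCI-H358 (-0.95 ± 0.064, adjusted p = 1.69e-09), whereas NPC1 fell in all 3 lines. ABCA1, a cholesterol exporter, rose in NCI-H358 (1.26 ± 0.13, adjusted p = 2.59e-07), with log2 changes of 0.03 ± 0.13 in A549 and -0.17 ± 0.13 in HCC827. ACSL5, an acyl-CoA synthetase, rose in A549 (2.06 ± 0.18, adjusted p = 4.81e-08) and fell in HCC827 (-1.60 ± 0.18, adjusted p = 7.85e-07), and ACSL1 fell in NCI-H358 (-1.93 ± 0.082, adjusted p = 4.95e-12) and HCC827 (-0.35 ± 0.082, adjusted p = 0.00183) and rose in A549 (0.22 ± 0.082, adjusted p = 0.0367).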
